A study of Homo sapiens with 3 samples.

Results

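The genes described here encode 7 enzymes that write or erase modifications of lysine 4 and lysine 27 of histone H3: KMT2C, KMT2D, KDM1A, CREBBP, EP300, KDM6A and EZH2. They were examined in LNCaP, a human prostate cancer line that responds to androgen, by chromatin immunoprecipitation and sequencing (ChIP-seq). One library was made with an antibody against H3K27ac (acetylation of lysine 27) and one with an antibody against H3K4me1 (monomethylation of lysine 4). The input library, made without antibody, was not analysed here. The 3 libraries come from the same line, and their labels name no treatment or time. Members were selected by position, as all called regions of either mark that touched a fixed hg19 window around a gene. This gave 78 of the 71077 H3K27ac regions and 194 of the 200812 H3K4me1 regions outside the mitochondrial sequence. KDM6A was included on a measured value: its window was chosen by the width of its H3K27ac region, so the H3K27ac values at KDM6A, and every overlap that uses them, only describe that choice.

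Acetylated lysine 27 marks active promoters and enhancers, and monomethylated lysine 4 marks enhancers whether active or only primed. KMT2C and KMT2D are the main enhancer methyltransferases of lysine 4, and KDM1A (LSD1) removes methyl groups from that residue. CREBBP (CBP) and EP300 (p300) are paralogous acetyltransferases that acetylate lysine 27. The other two enzymes do not act on the acetyl group itself: EZH2, the catalytic subunit of Polycomb repressive complex 2, methylates lysine 27, and KDM6A (UTX) removes that methylation, so that the residue can be acetylated. KDM6A is also a subunit of the KMT2C and KMT2D complexes. KDM1A is known as a cofactor of the androgen receptor in prostate cells, and EZH2 is often raised in advanced prostate cancer.

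Each mark was represented by 1 list of regions from 1 library, without replicates. No test between conditions was possible and no p-value was computed. The lists hold positions and a score per region but no read counts, so depth is unknown and a stretch outside the regions cannot be read as free of the mark. Intervals are exact Clopper-Pearson 95% intervals over regions and cover counting error only; neighbouring regions are not independent. Each window includes the flanks of its gene. In the RefSeq table of GRCh38.p14, the nearest protein-coding neighbours at the start and end sides are XRCC2 and GALNT11 for KMT2C, RHEBL1 and PRKAG1 for KMT2D, and TEX46 and LUZP1 for KDM1A, whose 3′ end overlaps LUZP1. They are ADCY9 and TRAP1 for CREBBP, RBX1 and L3MBTL2 for EP300, DUSP21 and DIPK2B for KDM6A, and PDIA4 and CUL1 for EZH2. No hg19 annotation was used, so a region was assigned to a window and not to a promoter, exon or intron, and regions near a window edge may belong to a neighbour. Transcription runs towards higher coordinates at KDM1A, EP300 and KDM6A and towards lower ones at KMT2C, KMT2D, CREBBP and EZH2.

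The start sites of KDM6A and EZH2 are shown because these enzymes act in opposite directions on methylated lysine 27 and their windows had the highest and the lowest H3K27ac share in the full lists. Both sequences are RefSeq windows of GRCh38.p14, from 250 bases before to 50 after the start, written 5′ to 3′ on the transcribed strand. Capitals mark each match to CCAAT on either strand (ATTGG on the printed strand). They lie at chrX:44872938-44873237, plus strand, and chr7:148884242-148884541, minus strand, and were not placed on the hg19 regions.
KDM6A: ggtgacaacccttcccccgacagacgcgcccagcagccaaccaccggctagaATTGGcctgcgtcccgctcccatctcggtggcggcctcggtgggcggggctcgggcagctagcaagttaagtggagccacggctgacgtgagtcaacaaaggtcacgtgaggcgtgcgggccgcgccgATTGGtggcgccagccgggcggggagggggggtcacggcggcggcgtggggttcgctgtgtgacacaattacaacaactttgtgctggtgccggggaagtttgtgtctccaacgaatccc
EZH2: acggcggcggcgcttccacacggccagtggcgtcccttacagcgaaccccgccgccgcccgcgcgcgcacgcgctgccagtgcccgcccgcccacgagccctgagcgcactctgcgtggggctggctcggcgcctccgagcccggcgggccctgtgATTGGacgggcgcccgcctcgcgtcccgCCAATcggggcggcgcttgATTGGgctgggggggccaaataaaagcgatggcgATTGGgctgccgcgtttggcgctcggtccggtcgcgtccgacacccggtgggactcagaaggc

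The EZH2 window held 4 matches to CCAAT and the KDM6A window 2, whereas the windows of the other 5 genes held none. A second start site listed for EZH2 held none either. At least 1 match was present in 34.6% of the 35116 promoter windows of the table, and 4 or more in 0.991%. Matches at KDM6A and EZH2 alone among these genes are not read as a difference from the 34.6%. GGGCGG and CACGTG were counted as well. GGGCGG ranged from 0 matches at EP300 to 15 at KMT2C, with 4 in the printed EZH2 window and 2 at KDM6A. At least 4 were present in 9.06% of promoters. CACGTG had 1 match each at KMT2D and KDM6A and none at the other 5 genes, and was present in 7.26%. CG dinucleotides numbered from 27 in the KMT2D window and 29 in the KDM6A window to 46 in the printed EZH2 window and 56 in the KMT2C window, against a median of 14 over the table. At least 27 were present in 28.2% of promoters, at least 29 in 24.2%, at least 46 in 2.89% and at least 56 in 0.276%. These are properties of the reference sequence, and a match describes letters only.

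KDM6A was the only one of the 7 windows in which H3K27ac regions covered more length than H3K4me1 regions, the measure closest to that of its choice; the same held in 11.0% of all windows of its width. H3K27ac covered 57.5% of the KDM6A window, and from 4.96% (EZH2) to 12.7% (KMT2D) of the other 6. H3K4me1 covered 9.23% (KDM1A) to 32.6% (CREBBP), with KMT2D at 29.9% and KDM6A at 29.7% close behind CREBBP. The length ratio of H3K27ac to H3K4me1 was 1.94 at KDM6A, 0.830 at EP300, 0.629 at KMT2C, 0.596 at KDM1A, 0.473 at EZH2, 0.425 at KMT2D and 0.236 at CREBBP, and 0.492 over both whole lists. The paralogues CREBBP and EP300 thus stood at the lowest ratio and at the second highest ratio of the set.

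**Figure D1:**
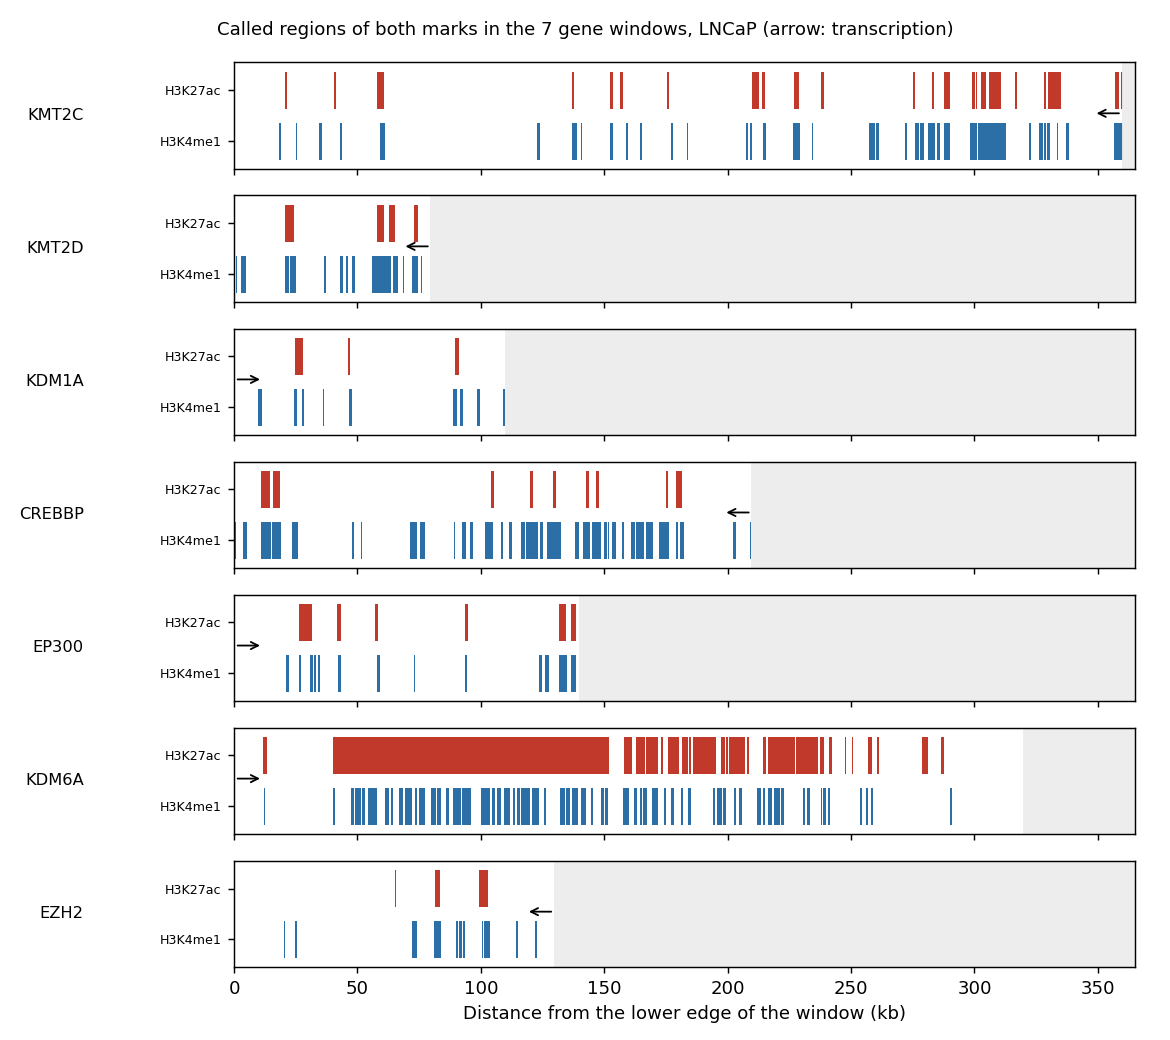
Called H3K27ac regions (red, upper row) and H3K4me1 regions (blue, lower row) in each gene window of LNCaP, drawn to scale by distance in kb from the lower edge of the window; grey is outside the window and the arrow gives the direction of transcription, not the start site. The KDM6A window carries 1 continuous H3K27ac region of 110 kb, whereas H3K27ac in the other windows lies in separate regions of at most 5.2 kb.

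For scale, the whole genome was divided into consecutive windows of each gene window's width, and those holding a region of either mark were kept. A median window of these widths had 3.18% to 3.51% of its length in H3K27ac and 7.36% to 7.69% in H3K4me1, so all 7 gene windows lay above the median for both marks. At least as much H3K27ac as at KDM6A was found in 4 of 8764 windows (0.0456%). The corresponding share was 13.0% for KMT2D, 14.4% for KMT2C, 16.9% for EP300, 23.9% for CREBBP, 34.5% for KDM1A and 37.4% for EZH2. For H3K4me1 it was 4.71% for CREBBP, 5.50% for KDM6A, 8.44% for KMT2D, 23.8% for KMT2C, 33.9% for EP300, 38.7% for EZH2 and 43.4% for KDM1A. KDM1A and EZH2 were therefore near the middle of the genome for both marks, and CREBBP, KDM6A and KMT2D were towards the upper end for H3K4me1. The gene windows were set around known genes, and many of the genome windows hold no gene. The genome windows were laid from each chromosome start, so a covered stretch could be split between neighbours. This was the case for the wide H3K27ac region of KDM6A.

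**Figure D2:**
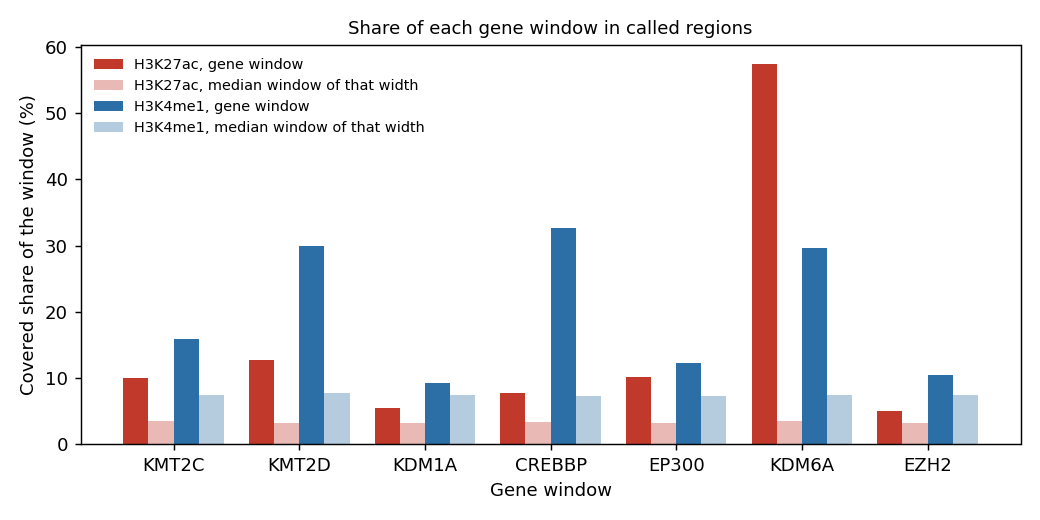
Share of each gene window (%, vertical axis) covered by H3K27ac (red) and H3K4me1 (blue) regions; solid bars are the gene window and pale bars the median over all windows of that width that hold a region. Each value is 1 library without error bars. KDM6A reaches 57.5% for H3K27ac, and CREBBP, KMT2D and KDM6A lie between 29.7% and 32.6% for H3K4me1.

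Across the 7 windows 62 of 78 H3K27ac regions (79.5%, interval 68.8% to 87.8%) shared at least 1 bp with an H3K4me1 region, against 83.1% of the whole list. Without KDM6A the count was 42 of 49 (85.7%, 72.8% to 94.1%). All H3K27ac regions of KMT2D (4), KDM1A (3), CREBBP (9) and EP300 (6) met H3K4me1. The 16 without it lay at KDM6A (9), KMT2C (6) and EZH2 (1). In the other direction, 111 of 194 H3K4me1 regions (57.2%, 49.9% to 64.3%) met H3K27ac, against 34.5% of the whole list. KDM6A supplied 62 of these 111. In the other 6 windows, 49 of 127 H3K4me1 regions did so (38.6%, 30.1% to 47.6%), an interval that includes the share of the whole list.

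KMT2C and KMT2D, the enhancer methyltransferases of lysine 4, differed in how their regions were spread. The KMT2C window (chr7:151800001-152160000) held 24 H3K27ac regions with 36.0 kb and 38 H3K4me1 regions with 57.1 kb. Most of both lay between the midpoint of the window and the edge where transcription starts, with 76.2% for H3K27ac and 78.9% for H3K4me1. The widest H3K27ac region there was 5200 bp at chr7:152129851-152135050. Among series of H3K27ac regions at most 12500 bp apart, the one with the most covered length ran to that same position from 152075051 and held 11 regions with 18.3 kb. Within it lay the widest H3K4me1 region of the set, 11350 bp at chr7:152101251-152112600, the only 1 of the 194 H3K4me1 regions to reach 10 kb, a width reached by 0.329% of the whole list. By contrast, 61.8 kb from 151861201 to 151922950 held neither mark. Parts of KMT2C have near-identical copies elsewhere in the genome, and how the authors treated reads matching several places is not given in the sources used here, so region calls in the copied parts are uncertain.

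The 6 H3K27ac regions of KMT2C that met no H3K4me1 were 750 to 1300 bp wide, around the window's median of 1050 bp, with scores of 0.009 to 0.024. Those that met H3K4me1 had wider ranges that include these, from 550 to 5200 bp and with scores of 0.001 to 0.048. This score comes from the authors, who gave the column no name; low values are taken as more stringent. At KMT2C, 3 of the 24 H3K27ac regions had 0.001, the lowest score in use, against 14.3% of the whole list.

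KMT2D, in the smallest window (chr12:49390001-49470000), had 4 H3K27ac regions of 1450 to 3450 bp and 14 H3K4me1 regions. Of these, 3 H3K27ac regions lay close together from 49448001 to 49464450, on the side where transcription starts, and the widest one lay alone at chr12:49410801-49414250. A 7700 bp H3K4me1 region at chr12:49445901-49453600 covered the whole of one H3K27ac region and the lower edge of the next. H3K4me1 covered 85.7% of the H3K27ac length at KMT2D, against 57.2% at KMT2C and 71.5% over the whole list. With 20 kb taken off each end of this narrow window, KMT2D kept 5.45 kb of the 10.2 kb of H3K27ac and 12.3 kb of the 23.9 kb of H3K4me1.

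KDM1A, the lysine 4 demethylase, had few regions of either mark. Its window (chr1:23320001-23430000) held 3 H3K27ac regions of 3300, 1000 and 1750 bp, in order of position, and 10 H3K4me1 regions of 550 to 1900 bp, the narrowest range of H3K4me1 widths in the set. The widest H3K27ac region, chr1:23344801-23348100, had H3K4me1 at both edges, in regions of 750 and 600 bp, and none over its midpoint. These edge regions had scores of 0.063 and 0.081, near the upper limit of 0.093 of that list. H3K4me1 covered 47.1% of the H3K27ac length at KDM1A, but 27.3% with H3K4me1 scores under 0.05 and 0% with scores at or below each list's median. At such scores H3K27ac covered 3.3 kb of the KDM1A window and H3K4me1 covered 5.1 kb, against 6.05 and 10.2 kb in the full lists. A stretch of 41.0 kb, 37.2% of the window, held neither mark.

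CREBBP had the most H3K4me1 per length of the set, a rank that KDM6A took with 20 kb taken off each window end. The CREBBP window (chr16:3750001-3960000) held 39 H3K4me1 regions with 68.5 kb, against a median of 15.4 kb in windows of this width. The adjacent windows of the same width held 66.8 and 71.8 kb, so this H3K4me1 length was not particular to the CREBBP window. The CREBBP window held 9 H3K27ac regions of 750 to 3650 bp with 16.2 kb, against a median of 6.95 kb. Each of the 9 met H3K4me1, and H3K4me1 covered 91.7% of their length, the highest share of the set. H3K27ac, in turn, covered 21.7% of the H3K4me1 length, the lowest share of the set, against 35.1% over the whole list. Of the 39 H3K4me1 regions, 28 met no H3K27ac and 11 did (28.2%, interval 15.0% to 44.9%). That interval includes the 34.5% of the whole list. Both of the widest H3K27ac regions, chr16:3761001-3764650 and chr16:3765751-3768800, lay at the end-side edge, where TRAP1 is the neighbour. With 20 kb taken off each end the H3K27ac length fell to 9.5 kb, and with scores at or below the list median to 10.6 kb. The remaining 7 H3K27ac regions began at 3854051 and ended at 3931600, with H3K4me1 regions following each other at short distances through the same stretch.

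EP300, the paralogue of CREBBP, had a different balance. Its window (chr22:41460001-41600000) held 6 H3K27ac regions with 14.2 kb and 14 H3K4me1 regions with 17.1 kb. H3K27ac covered 51.9% of the H3K4me1 length, and 7 of the 14 H3K4me1 regions met it (50.0%, interval 23.0% to 77.0%), against 11 of 39 at CREBBP (28.2%, 15.0% to 44.9%). The intervals overlap and both include the 34.5% of the whole list, so these counts do not separate the shares of the paralogues. The widest H3K27ac region of EP300, 5150 bp at chr22:41486251-41491400, had H3K4me1 at both edges and over 24.3% of its length, leaving the middle uncovered. Another pair of H3K27ac regions, of 3000 and 2000 bp, lay near the end-side edge and was almost wholly inside H3K4me1 (100% and 97.5%). Without the outer 20 kb of the window, H3K27ac covered 9.15 kb and H3K4me1 8.7 kb, a ratio of 1.05.

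KDM6A, the lysine 27 demethylase, carried acetylation over most of its window (chrX:44690001-45010000): 29 H3K27ac regions covered 184 kb and 67 H3K4me1 regions covered 95050 bp. A single region of 109750 bp, chrX:44730001-44839750, made up 59.6% of the H3K27ac length. It ranked 2nd in width in the whole list, between regions of 122 and 92.3 kb. One other region of the window, 10950 bp at chrX:44906401-44917350, reached 10 kb, a width reached by 0.625% of the list; none in the other 6 windows did. With all H3K27ac regions at most 12500 bp apart joined, 26 of the 29 formed 1 series that ended at 44951350.

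H3K4me1 within the 110 kb region was broken into 37 regions of 550 to 3650 bp, with a median of 1400 bp. They were separated by gaps with a median of 900 bp, against a median of 4000 bp between H3K4me1 regions of the whole list. H3K4me1 covered 53.3% of the acetylated stretch. The widest gap, 6450 bp from 44731001 to 44737450, followed the first H3K4me1 region, at the end where the acetylated region begins and on the side where transcription starts. Of the 37 regions, 18 had a score of 0.003 and none had a lower one, against 27.8% of the whole list with 0.003 or less.

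Beyond the 110 kb region, acetylation continued in pieces. From 44839751 to 44951350, a span of 112 kb, 25 H3K27ac regions covered 69.0 kb, or 61.8% of the span. Their median width was 1400 bp and the median gap between them 975 bp. The stretch was set by joining regions at most 12500 bp apart, so no wider gap was possible in it. The scores in this stretch ran from 0.002 to 0.032, while the 110 kb region had 0.001. H3K4me1 covered 35.1% of the H3K27ac length here, against 41.5% on chromosome X and 71.5% over the whole list. Of the 25 regions, 7 met no H3K4me1. For comparison, 63.1% of the H3K27ac regions on X and 83.1% of the whole list met it. Per 10 kb, H3K27ac covered 9.9 to 10.0 kb along the 110 kb region, 3.7 to 9.7 kb over the next 90 kb and at most 2.45 kb from 240 kb after the lower window edge onwards. H3K4me1 covered 3.05 to 7.35 kb per 10 kb along the 110 kb region and 2.05 to 5.05 kb over the next 90 kb.

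**Figure D3:**
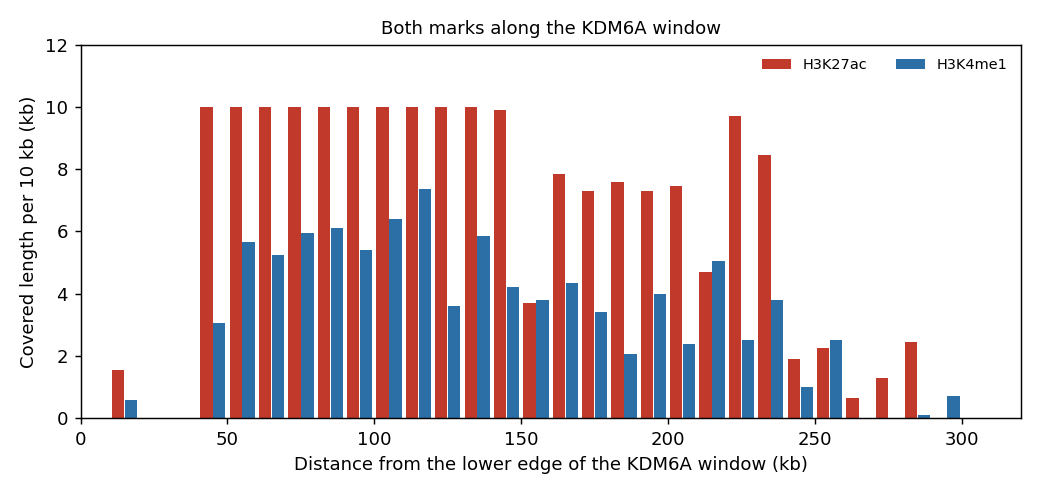
Length covered by H3K27ac (red, left bar of each pair) and by H3K4me1 (blue, right bar) in consecutive 10 kb steps along the KDM6A window, by distance in kb from its lower edge; each bar is 1 library. H3K27ac fills nearly every 10 kb step from 40 to 150 kb and continues at 3.7 to 9.7 kb per step up to 240 kb, while H3K4me1 never exceeds 7.35 kb per step.

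H3K27ac length was lower on both sides of the KDM6A window, which was chosen for its wide H3K27ac region, so this contrast only describes that choice. The adjacent windows of 320 kb held 25.4 kb of H3K27ac on the lower side and 18.4 kb on the upper side, and 15.5 and 13.4 kb of H3K4me1. At the other genes the H3K27ac length was between the values of the 2 adjacent windows at KDM1A (6.05 kb, with 0.95 and 11.1 kb) and EZH2 (6.45 kb, with 4.15 and 10.4 kb) and below both at CREBBP (16.2 kb, with 28.4 and 26.6 kb) and EP300 (14.2 kb, with 18.1 and 17.2 kb). At KMT2C (36.0 kb, with 20.2 and 18.1 kb) and KMT2D (10.2 kb, with 8.25 and 7.7 kb) it was above both. The H3K4me1 length was above both adjacent windows only at KDM6A. It lay between them at CREBBP (68.5 kb, with 66.8 and 71.8 kb) and KMT2C (57.1 kb, with 85.0 and 48.8 kb). The same held at KMT2D (23.9 kb, with 25.9 and 18.1 kb) and KDM1A (10.2 kb, with 8.6 and 16.8 kb). EP300 (17.1 kb, with 22.2 and 25.6 kb) and EZH2 (13.7 kb, with 16.1 and 24.8 kb) lay below both.

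On chromosome X, the KDM6A window held 5.42% of all H3K27ac length and 2.69% of all H3K4me1 length, in 0.207% of the chromosome's span. None of the 423 windows of 320 kb on X held as much of either mark, whose medians were 5.05 kb for H3K27ac and 4.95 kb for H3K4me1. These windows were laid from the chromosome start, and a boundary between them cut through the 110 kb region, which the gene window held whole. A surplus of H3K27ac over H3K4me1 length was common on this chromosome: it was present in 45.6% of the X windows, against 11.0% of the windows of that width on all chromosomes. The share of H3K27ac regions meeting H3K4me1 was likewise 69.0% at KDM6A (49.2% to 84.7%), 63.1% on X and 83.1% over the whole list. H3K4me1 regions met H3K27ac in 92.5% of cases at KDM6A (83.4% to 97.5%), against 47.2% on X. The 110 kb region, for which this window was chosen, alone met 37 of its 67 H3K4me1 regions. The H3K27ac values and overlap shares of KDM6A therefore only describe that choice. The LNCaP genome is rearranged and aneuploid; gene copy number was not measured here, and its part in these values was not tested.

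EZH2, the lysine 27 methyltransferase, had the smallest H3K27ac share of the set in the full lists. KDM1A had the smallest with scores at or below each list's median, and CREBBP with 20 kb taken off each window end. The EZH2 window (chr7:148480001-148610000) held 3 H3K27ac regions of 550, 2200 and 3700 bp, with 6.45 kb in all, and 12 H3K4me1 regions with 13.7 kb, of which 7.9 kb remained with scores at or below the list median. All of the H3K27ac and 87.9% of the H3K4me1 length lay between the midpoint of the window and the edge where transcription starts. The widest H3K27ac region, chr7:148579301-148583000, had the lowest score of its list, 0.001, and H3K4me1 over 56.8% of it, reaching its upper edge but neither its lower edge nor its midpoint. The narrowest, 550 bp at chr7:148545251-148545800, met no H3K4me1 and had a score of 0.032. Between 148505551 and 148545250, 39.7 kb held neither mark.

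**Figure D4:**
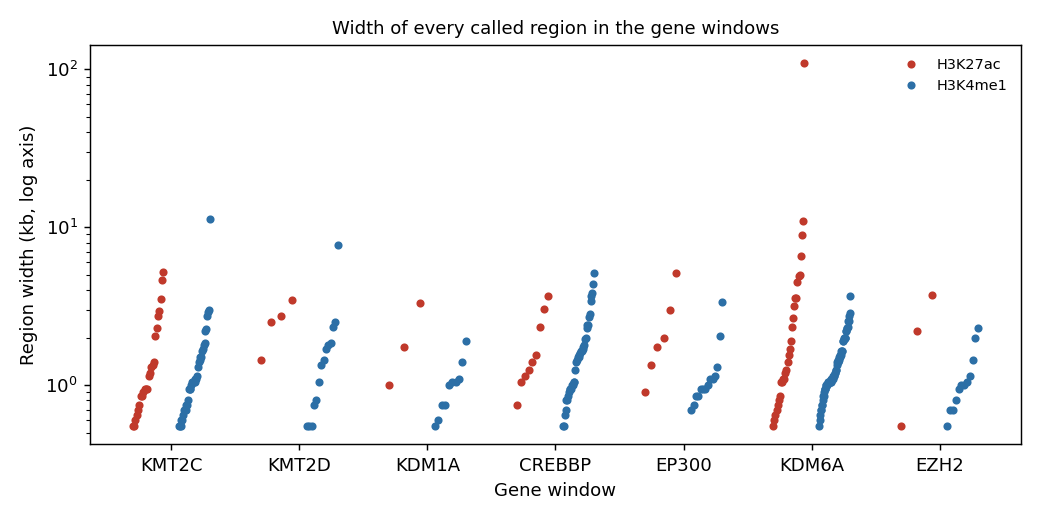
Width in kb (log axis) of every called H3K27ac region (red, left) and H3K4me1 region (blue, right) in each gene window; horizontal spread within a column only orders the points. The KDM6A region of 110 kb stands apart, the other H3K27ac regions at KDM6A have a range that includes those of the remaining genes, and the widest H3K4me1 regions are at KMT2C (11350 bp) and KMT2D (7700 bp).

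Joined series of H3K27ac regions were ranked by the length their regions covered, not by span. Outside KDM6A and KMT2C the series with the most covered length held 3 regions with 6.7 kb at KMT2D (chr12:49448001-49464450), a pair with 6.9 kb at EP300 (chr22:41486251-41503450), a pair with 6.7 kb at CREBBP (chr16:3761001-3768800), and the widest single region at KDM1A and EZH2. Of the 37027 series of the whole list, 4 had more covered length than that of KDM6A, 838 more than that of KMT2C, 4738 more than that of EP300, 4911 more than those of KMT2D and CREBBP, 10679 more than that of EZH2 and 12177 more than that of KDM1A. The widest H3K4me1 region was 5150 bp at CREBBP (chr16:3868151-3873300), 3650 bp at KDM6A (chrX:44782351-44786000), 3350 bp at EP300 (chr22:41591551-41594900), 2300 bp at EZH2 (chr7:148581451-148583750) and 1900 bp at KDM1A (chr1:23408651-23410550). Stretches with neither mark reached 29.3 kb at KDM6A, at the upper edge of the window from 44980701, and 28.9 kb at EP300 from 41554651. They reached 22.1 kb at CREBBP from 3775751 and 15.8 kb at KMT2D from 49394751. The longest stretch thus took up 9.16% of the window at KDM6A and 10.5% at CREBBP, against 37.2% at KDM1A and 30.5% at EZH2.

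H3K27ac regions of at least 2 kb were also examined for H3K4me1 at their edges. Of 19 such regions in the 6 windows outside KDM6A, 13 had both edges (the outermost 50 bp) in H3K4me1 and none had neither. Over the whole list 48.6% had both, and the share with neither was not computed. No interval was computed for these counts, so they are not read as a difference from the list. Another arrangement, seen in 5 of the 19 and in 6.80% of the list, combined covered edges with an uncovered midpoint: one each at KDM1A, CREBBP and EP300, and a pair at KMT2D. In each of those windows except CREBBP they included the widest H3K27ac region. At KDM6A, 2 of 12 regions of this size had both edges covered, 6 had neither and none showed the arrangement with an uncovered midpoint. Because these windows were chosen around genes, and the list includes many regions away from genes, the shares are given as a description.

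Acetylation lay more on the start side than on the end side of the midpoint in all 7 windows, from 52.8% of the H3K27ac length at CREBBP and 58.3% at EP300 through 62.6% at KDM6A, 66.0% at KMT2D, 71.1% at KDM1A and 76.2% at KMT2C to 100% at EZH2. H3K4me1 did so in 6 of them, with 50.7% at KDM1A and 62.7% at CREBBP, and EP300 was the exception with 41.3%. At EP300 the H3K4me1 of the end side lay mostly in the outer 20 kb. Gene starts were not located on hg19, so these shares refer to the windows as set and not to distances from a start site. No such share was computed for windows around other genes, so the lean to the start side is not shown to be particular to this set.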

How the data were processed

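ChIP-seq of H3K27ac and H3K4me1 in LNCaP was available as 1 deposited region list per mark. Per the labels' protocols, crosslinked chromatin was sonicated and sequenced as single-end reads. The submitters' processing notes name Bowtie 0.12.8 and the build hg19. How regions were called, at what threshold and with what use of the input is not given in the sources used here. A score per region, deposited by the authors with no name, served only to filter within a list. It ran from 0.001 to 0.048 for H3K27ac and to 0.093 for H3K4me1. Starts were read as 0-based and printed counted from 1. The lists carry no read counts, so depth is unknown.

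Covered lengths were clipped to the windows; region counts and widths used whole regions. An H3K27ac region and 2 H3K4me1 regions crossed a window edge. Overlap meant at least 1 bp. All 7 genes and, per window, the widest region of each mark, regions of 10 kb or more, the joined H3K27ac series of greatest covered length and the longest stretch without regions are named. Other regions were chosen after their values were seen. The members, windows and lists were chosen with earlier results of these data known. Other histone-modifying genes could not be placed without an hg19 annotation and are not described. RefSeq start sites were matched by symbol for 7 of 7 genes; CCAAT was searched on both strands. Interval code was tested on simulated data. The scripts ran in Python 3.11.15 with pandas 2.3.3, numpy 2.4.6, matplotlib 3.10.9 and scipy 1.17.1.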

Additional observations from a re-analysis of the deposited data

How the results depend on the processing

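Alternatives were scores at or below the list median, H3K4me1 scores under 0.05, merging of regions within 1 kb, windows shortened by 20 kb at each end, overlap over 50% or more of a region, only regions wholly inside a window and, added after seeing the data, leaving out the KDM6A window. A length or length share was taken as moved beyond a factor of 1.5, and a share of regions outside its interval; of 100 alternative values, 16 moved and 84 did not. With an overlap of at least 50%, the share of H3K27ac regions meeting H3K4me1 was 59.0% and the share of H3K4me1 regions meeting H3K27ac 47.4%. The shares given for the whole list use at least 1 bp, so they cannot be set beside these. Leaving out KDM6A, the H3K27ac length fell to 89.0 kb, against 273 kb in all 7 windows, and the share of H3K4me1 regions meeting H3K27ac was 38.6%. Of 66 values of single windows other than KDM6A, 12 moved. KDM6A had the highest H3K27ac share and length ratio, and CREBBP the lowest ratio, under the score, merging and shortening alternatives. With shortened windows the H3K27ac length also exceeded that of H3K4me1 at EP300 (1.05). No paired analysis was possible because the marks have no replicates. Without read counts, stretches outside the regions cannot be interpreted.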
